A study of Mus musculus with 12 samples.

Results

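A set of 9 genes tied to heat production in brown and beige fat were followed in mouse bone marrow cells that had been induced to become fat cells. They were chosen by symbol: Ucp1, Ucp2, Ucp3, Dio2, Cidea, Cox7a1, Cox8b, Chchd10 and Kcnk3. All 9 were found among the 23955 gene symbols of the count table. Of these, 6 had enough reads to be tested and 3 (Ucp1, Ucp3 and Cox7a1) did not.

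The cells were commercial mesenchymal stem cells (MSCs) derived from bone marrow of female C57BL/6 mice, with no genetic change named in the labels. Every culture was given dexamethasone (1 uM), insulin (5 ug/mL) and isobutylmethylxanthine (0.5 mM), a cocktail that drives fat-cell formation. The TBT group had 50 nM tributyltin, the ROSI group had 500 nM rosiglitazone and the DMSO group had 0.1% of the solvent alone, in each case for 14 days and with 4 libraries per group. Rosiglitazone is a drug that activates PPARgamma, the master regulator of fat-cell formation, and tributyltin is an organotin that binds both PPARgamma and its partner receptor RXR. Whether the 4 libraries of each group stem from separate cultures is not stated, and the p-values reflect no more than the variation among these libraries, part of which may be technical. All 3 comparisons draw on the same groups: TBT and ROSI share the DMSO libraries as their control, and the TBT against ROSI comparison reuses both.

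Brown and beige fat cells burn fuel to make heat. The uncoupling protein UCP1 lets protons flow back across the inner mitochondrial membrane without making ATP, so that the energy of respiration leaves as heat. Sympathetic nerves switch this on through beta-adrenergic receptors and cyclic AMP, and the enzyme encoded by Dio2 adds to it by making active thyroid hormone inside the cell. White fat cells, which store lipid, can take on some of these features and are then called beige or brite.

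Total counts were 4639929 to 5988715 per library in TBT, 4027152 to 7474654 in ROSI and 4074568 to 7111542 in DMSO. Levels are given in CPM, the usual depth-scaled count of a gene, with library sizes adjusted by the TMM method, as mean ± SD over n = 4 libraries unless said otherwise. A library's detection limit was set at 3 reads, which came to 0.535 to 0.650 CPM in TBT, 0.387 to 0.750 CPM in ROSI and 0.413 to 0.711 CPM in DMSO; it covers counting error only. A library that stood apart was TBT 4, whose log2 profile correlated with the other TBT libraries at a mean r of 0.953 and with the DMSO libraries at a mean r of 0.961. In TBT 4, 6.85% of counts lay on the ribosomal RNA precursor Rn45s, against 0.399% to 0.670% in the other TBT libraries. Relative to the DMSO mean, GC-rich genes lay lower than GC-poor genes by a log2 difference of -0.68 to -0.40 in TBT 1 to 3, against -0.02 in TBT 4, -0.19 to 0.30 in ROSI and -0.09 to 0.14 in DMSO.

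ROSI cells had higher levels than DMSO cells of 5 of the 6 tested genes (Ucp2, Cidea, Cox8b, Chchd10 and Kcnk3) and a lower level of Dio2. Among all 12323 tested genes, 10.0% were higher and 12.6% lower. When each of the 12 libraries was left out in turn, the Cidea call held 7 times, and Cox8b passed the filter on low counts through its ROSI libraries. Chchd10, for example, was at 54.5 ± 24.2 CPM in ROSI, against 6.05 ± 10.0 CPM in DMSO, or 1.05 ± 0.224 CPM without DMSO 3 (n = 3). TBT cells showed another pattern against DMSO: Cidea fell to 1.17 ± 0.393 CPM in TBT, against 4.21 ± 1.27 CPM in DMSO, Ucp2 rose by 0.69 log2 units in a call that rested on single libraries, and the other 4 tested genes did not pass. Set against ROSI directly, TBT cells had more Dio2 and less Cidea, Cox8b, Chchd10 and Kcnk3. Ucp1, the gene that defines thermogenic fat, had no read in any TBT library and at most 5 reads in any library of the study. In such bulk cultures, fewer cells of a kind and less RNA per cell cannot be told apart.

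By edgeR's quasi-likelihood test at an adjusted p under 0.05, ROSI against DMSO called 5 tested members higher and 1 lower, where 22.6% of all 12323 tested genes were called (10.0% higher and 12.6% lower). TBT against DMSO called 1 higher and 1 lower of 6, where 15.2% of all tested genes were called (8.22% higher and 7.03% lower). That background of 1013 genes higher and 866 lower became 748 higher and 1143 lower with upper-quartile scaling. TBT against ROSI called 1 higher and 4 lower of 6, where 23.9% were called (12.8% higher and 11.1% lower). The median log2 fold change of the 6 members was 0.08 for TBT against DMSO, 1.77 for ROSI against DMSO and -2.09 for TBT against ROSI, beside -0.01, 0.01 and 0.02 over all tested genes. These counts leave out the 3 members with too few reads, and Cox8b passed the filter on low counts through its ROSI libraries, so they describe the 6 genes and are no measure of the whole set. The libraries of ROSI and DMSO did not overlap for any of the 6 genes, 5 being higher and 1 lower, where 28.3% of all tested genes did not overlap (13% higher and 15.4% lower). Those of TBT and DMSO did not overlap for Cidea alone, which was lower, where 15.7% did not overlap (7.42% higher and 8.26% lower). Those of TBT and ROSI did not overlap for all but Ucp2, 1 being higher and 4 lower, where 20.7% did not overlap (10.9% higher and 9.89% lower).

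**Figure D1:**
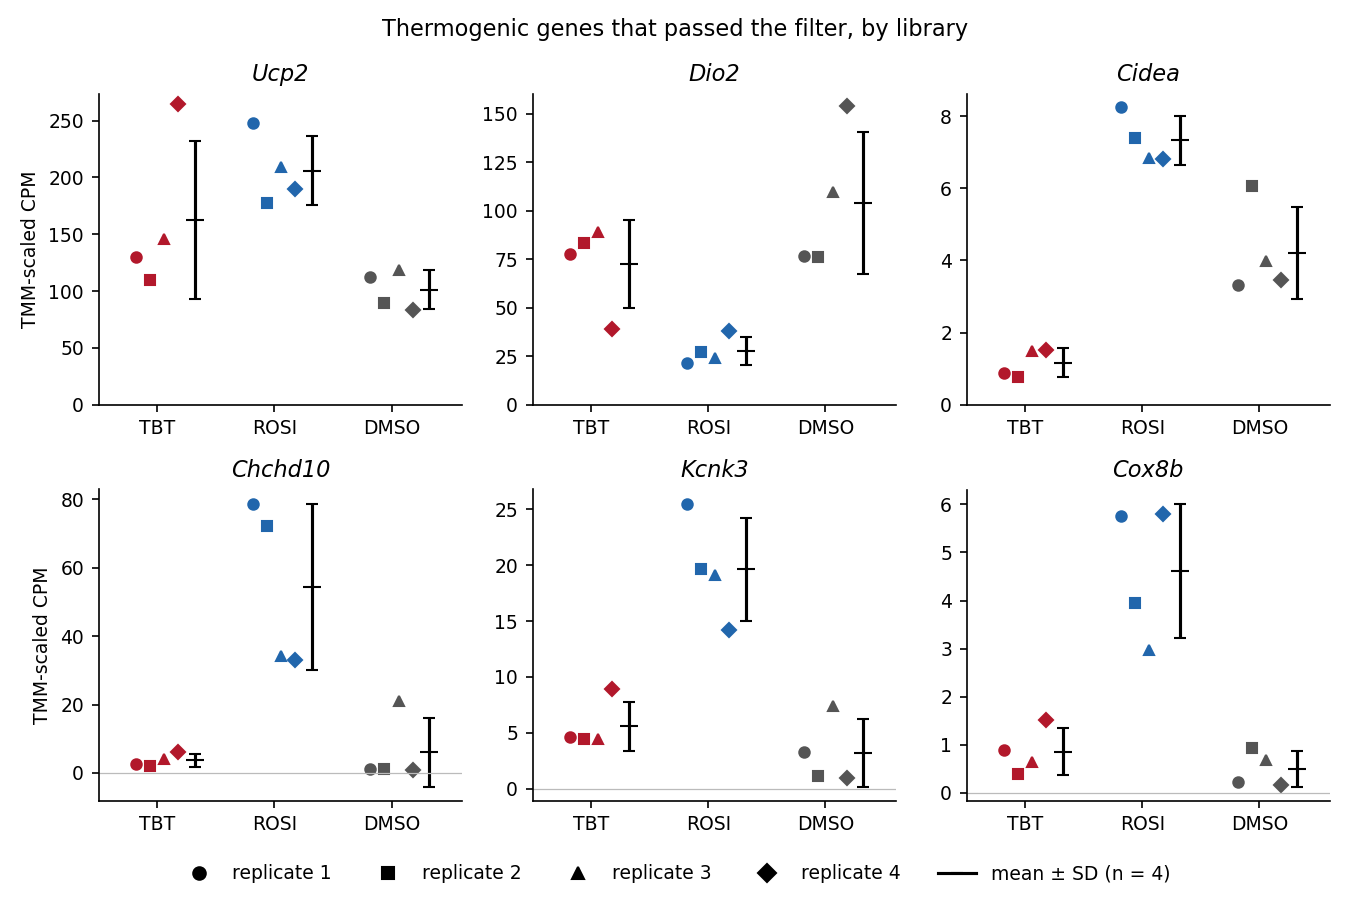
TMM-scaled CPM (linear axis) of the 6 tested genes in each library, with TBT, ROSI and DMSO along the horizontal axis, marker shape for the replicate number, and the mean with its SD (n = 4) at the right of each group. The ROSI libraries lie above the DMSO libraries for every gene but Dio2, where they lie below, and DMSO 3 stands far above the other DMSO libraries for Chchd10 (21.1 against 0.788 to 1.18 CPM).

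**Figure D2:**
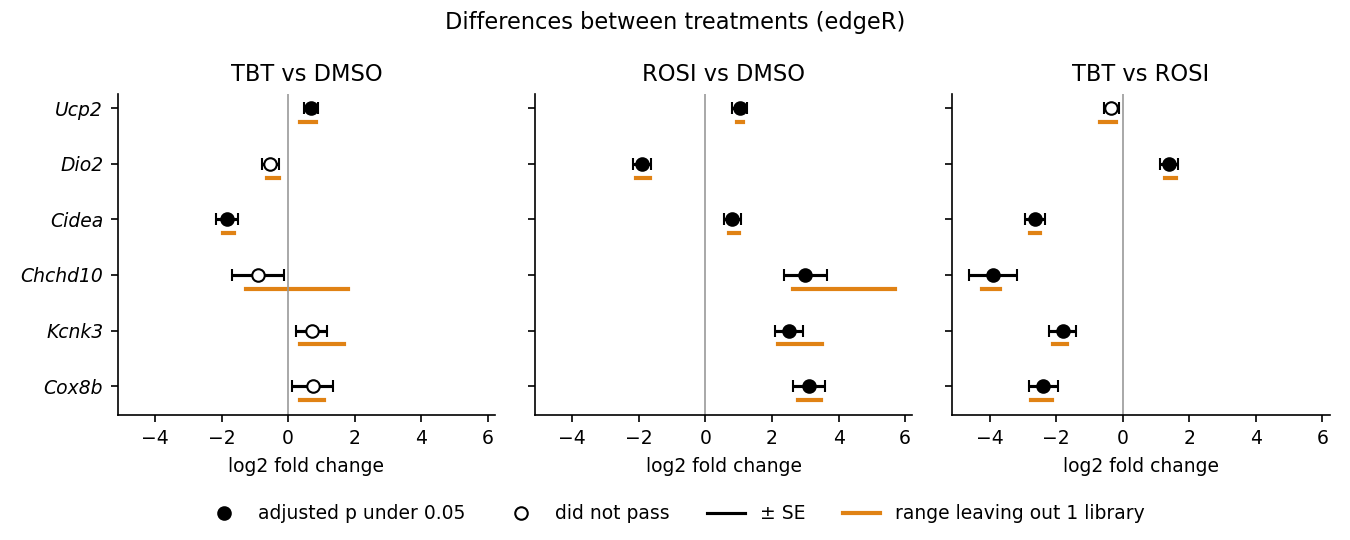
Log2 fold change of the 6 tested genes in the 3 comparisons, with its SE (bars), filled where the adjusted p of edgeR was under 0.05, and an orange line for the range over the fits that leave out 1 library. The Chchd10 line for TBT against DMSO crosses 0, since its value is 1.81 without DMSO 3 and -0.89 with it.

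Because a gene's transcript length adds to its reads, levels of different genes were compared per kilobase of the longest coding transcript. On this scale Ucp2 was the highest of the 9 in every group, at 40.8 CPM per kb in TBT, 51.7 in ROSI and 25.3 in DMSO. Dio2 came next in TBT and DMSO, at 12.4 and 17.9 CPM per kb, but had 4.76 in ROSI. There Chchd10 was second, at 36.6 CPM per kb in ROSI, against 2.47 in TBT and 4.07 in DMSO. Ucp1 and Ucp3 were at the bottom in every group, with 0 and 0.121 CPM per kb in TBT, 0.257 and 0.143 in ROSI, and 0.223 and 0 in DMSO. These values are levels per length with no test of the order between genes.

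A pair of promoter windows are shown because they carry a motif of a signal given to these cells: Dio2, with a cyclic AMP response element, since isobutylmethylxanthine blocks the breakdown of cyclic AMP, and Chchd10, with the hexamer that PPAR, RXR and related nuclear receptors bind, since rosiglitazone and tributyltin are ligands of such receptors. The windows are from RefSeq on GRCm38.p6 and run from 250 bases before to 50 bases after the annotated start, on the strand of the gene; 7 of the 9 genes had one, while Cidea and Kcnk3 had none. Capitals mark the motif, TGACGTCA in Dio2 (chr12:90738989-90739288, minus strand, first base 95 before the start) and AGGTCA read on the opposite strand as TGACCT in Chchd10 (chr10:75932880-75933179, plus strand, first base 112 before the start).
Dio2: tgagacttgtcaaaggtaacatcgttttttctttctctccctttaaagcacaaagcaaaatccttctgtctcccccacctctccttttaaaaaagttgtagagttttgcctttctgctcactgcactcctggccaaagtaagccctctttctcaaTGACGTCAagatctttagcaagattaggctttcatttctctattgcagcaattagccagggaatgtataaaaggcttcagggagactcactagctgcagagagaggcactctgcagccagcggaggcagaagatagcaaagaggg
Chchd10: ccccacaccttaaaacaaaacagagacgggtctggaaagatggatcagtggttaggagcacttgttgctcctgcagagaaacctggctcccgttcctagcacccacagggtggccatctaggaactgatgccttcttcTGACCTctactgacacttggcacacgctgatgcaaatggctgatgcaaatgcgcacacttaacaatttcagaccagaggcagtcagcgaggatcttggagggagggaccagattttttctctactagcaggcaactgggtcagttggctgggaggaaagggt

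Both strands of each window were searched. TGACGTCA was in 588 of 32851 RefSeq promoters of this length (1.79%), and among the 7 members it was in Dio2 alone. AGGTCA was in 5340 promoters (16.3%) and, besides Chchd10, in the windows of Ucp1 (14 bases before the start) and Ucp3 (149 and 44 bases before). The windows of Ucp1 and Ucp3 are not shown, and these genes had too few reads to be tested. The hexamer therefore does not set Chchd10 apart from them. The direct repeat DR1, which is AGGTCA 2 times in a row with any 1 base between and which PPAR and RXR bind as a pair, was in 0 of the 7 windows and in 13 of 32851 (0.0396%). A match describes these letters and is no measure of binding.

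Ucp2 encodes a mitochondrial carrier related to UCP1 that is made in many tissues and whose role lies in metabolite exchange rather than in heat. Its level was 130, 110, 146 and 265 CPM in TBT 1 to 4, then 247, 178, 209 and 190 CPM in ROSI and 112, 89.1, 119 and 83.7 CPM in DMSO. All ROSI libraries were above all DMSO libraries, whereas TBT overlapped both other groups, with TBT 4 the highest library of all. The means were 163 ± 69.6 CPM in TBT, 206 ± 30.6 CPM in ROSI and 101 ± 17.2 CPM in DMSO. By edgeR, ROSI was higher than DMSO by a log2 fold change of 1.03 ± 0.22 (SE; adjusted p = 0.0023), in 4 of 4 libraries. TBT was higher than DMSO by 0.69 ± 0.22 (adjusted p = 0.044), and TBT against ROSI, at -0.34 ± 0.22, did not pass (adjusted p = 0.26). The TBT call rested on single libraries: without TBT 4 the log2 fold change was 0.36 (adjusted p = 0.068), and the call also ended without TBT 3, without DMSO 1, 2 or 4, and without ROSI 3 or 4 (largest adjusted p = 0.11). Without TBT 4, TBT against ROSI was -0.67 and passed (adjusted p = 0.0017).

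Among the 3 uncoupling proteins, Ucp2 held nearly all reads. Its share of the reads of Ucp1, Ucp2 and Ucp3 was 99.8% ± 0.223 in TBT, 99.6% ± 0.171 in ROSI and 99.6% ± 0.600 in DMSO. None of the differences passed an exact two-sided permutation test over libraries (p = 0.714 for TBT against DMSO, 0.971 for ROSI against DMSO and 0.171 for TBT against ROSI, n = 4 each).

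Ucp1 was close to the limit of what these libraries can show. Its counts were 0 reads in all 4 TBT libraries, 3, 3, 2 and 1 reads in ROSI 1 to 4, and 0, 5, 1 and 1 reads in DMSO 1 to 4. In sum this is 0 reads in TBT, 9 in ROSI and 7 in DMSO, and 5 of the 7 DMSO reads lay in DMSO 2. All ROSI libraries were above all TBT libraries, and DMSO overlapped both. The detection limit of 3 reads over a whole group is 0.149 CPM in TBT. In exact 95% Poisson intervals, which cover counting error only, the pooled level was 0 CPM in TBT (up to 0.183), 0.390 CPM in ROSI (0.178 to 0.740) and 0.317 CPM in DMSO (0.127 to 0.652). The TBT interval overlaps both others, so no lower bound is put on the fold. The exact two-sided permutation test over libraries gave p = 0.0286 for TBT against ROSI, the smallest that 4 against 4 libraries allow, and 0.171 after adjustment over the 6 comparisons of Ucp1 and Ucp3. TBT against DMSO gave an exact permutation p = 0.143 and ROSI against DMSO p = 0.83. When no filter was applied, edgeR gave Ucp1 an adjusted p of 0.093 for TBT against DMSO and 0.058 for TBT against ROSI.

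How far such counts stand above stray reads was gauged with 1489 genes of olfactory, vomeronasal and taste receptors, which fat cells are not expected to use. These genes had a mean of 2.04 reads per gene over the 4 TBT libraries, 1.07 over the ROSI libraries and 6.97 over the DMSO libraries, with a 95th percentile of 7, 4 and 20 reads. As many reads as Ucp1 or more were found for 1.34% of them in ROSI and for 38.9% of them in DMSO. By read sums, the 7 Ucp1 reads of DMSO are therefore at the level of genes that should be silent, and were not read as expression. The 9 reads of ROSI lie above the 95th percentile in that group, and no group comparison of Ucp1 passed after adjustment. Read sums set against the receptor genes, here and below, were not scaled for transcript length. The longest coding transcript has 1636 nt for Ucp1 and 2448 nt for Ucp3, but 485 nt for Cox7a1 and 360 nt for Cox8b. Equal sums therefore stand for unlike levels per kilobase.

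Ucp3, the uncoupling protein of skeletal muscle and brown fat, had 1, 3, 0 and 2 reads in TBT 1 to 4, then 0, 3, 1 and 4 reads in ROSI, and 0 reads in all 4 DMSO libraries. The sums were 6, 8 and 0 reads. The pooled level was 0.298 CPM in TBT (exact 95% Poisson interval 0.110 to 0.649), 0.346 CPM in ROSI (0.150 to 0.682, with 4 of the 8 reads in ROSI 4) and 0 CPM in DMSO (up to 0.167, with a detection limit of 0.136 CPM), and these intervals overlap. Neither difference from DMSO passed an exact two-sided permutation test (p = 0.143 for each of TBT and ROSI against DMSO, adjusted p = 0.214), and TBT and ROSI did not separate (p = 0.857). Among the receptor genes 8.66% had at least 6 reads in TBT and 1.54% had at least 8 in ROSI.

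**Figure D3:**
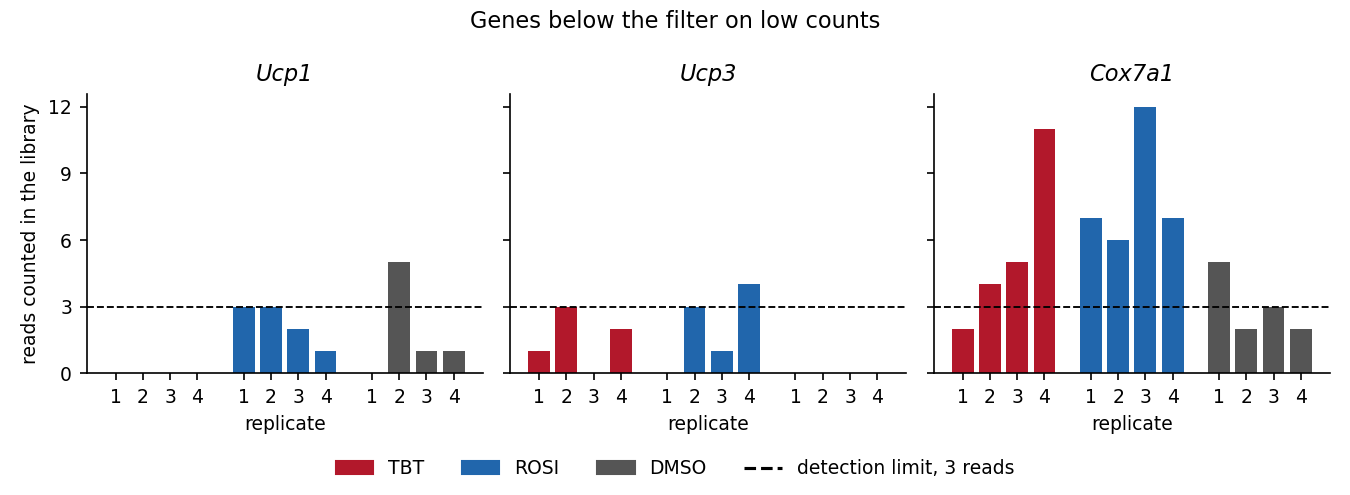
Reads counted for Ucp1, Ucp3 and Cox7a1 in each library of TBT, ROSI and DMSO, with the detection limit of 3 reads as a dashed line. No TBT library holds a Ucp1 read and no DMSO library a Ucp3 read, and Cox7a1 reaches 11 reads in TBT 4 and 12 in ROSI 3.

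Of 5 tested mitochondrial carriers related to the uncoupling proteins, 1 passed as lower in TBT than in DMSO, 1 as higher and 1 as lower in ROSI than in DMSO, and 2 as lower in TBT than in ROSI. Of these, Slc25a30 (lower in TBT than in ROSI) was called in 7 of the 12 fits without 1 library. Slc25a27, also called UCP4, fell to 10.5 ± 0.535 CPM in TBT and to 9.30 ± 1.58 CPM in ROSI, against 17.0 ± 1.73 CPM in DMSO. Its log2 fold change by edgeR was -0.70 ± 0.17 in TBT (adjusted p = 0.012) and -0.88 ± 0.17 in ROSI (adjusted p = 0.0010). The adenine nucleotide carrier Slc25a5, which also leaks protons, had 91.3 ± 13.5 CPM in TBT, 153 ± 14.9 CPM in ROSI and 93.2 ± 10.1 CPM in DMSO; it was higher in ROSI than in DMSO by 0.72 ± 0.13 and lower in TBT than in ROSI by -0.75 ± 0.13 (edgeR, adjusted p = 0.00068 and 0.00073).

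Dio2 encodes the deiodinase that turns the prohormone thyroxine into active triiodothyronine inside the cell, and in brown fat its gene responds to cyclic AMP. Its level was 77.7, 83.5, 89.2 and 39.0 CPM in TBT 1 to 4, then 21.5, 26.9, 24.1 and 38.2 CPM in ROSI and 76.5, 76.3, 110 and 154 CPM in DMSO. Every ROSI library was below every library of the other groups, though ROSI 4 at 38.2 CPM came close to TBT 4 at 39.0 CPM. The means were 72.4 ± 22.7 CPM in TBT, 27.7 ± 7.35 CPM in ROSI and 104 ± 36.7 CPM in DMSO. Dio2 was lower in ROSI than in DMSO by a log2 fold change of -1.91 ± 0.27 (edgeR, adjusted p = 5.0e-05) and higher in TBT than in ROSI by 1.39 ± 0.27 (adjusted p = 0.0014). TBT and DMSO overlapped, and their difference of -0.53 ± 0.25 did not pass (adjusted p = 0.16). Both calls held in each of the 12 fits that left out a library.

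Of 5 other tested genes of thyroid hormone handling, 1 rose and 1 fell in TBT against DMSO, 1 rose in ROSI against DMSO, and 2 were higher and 2 lower in TBT than in ROSI. Dio3, which inactivates thyroid hormone, had 11.9 ± 1.49 CPM in TBT, 5.26 ± 1.85 CPM in ROSI and 8.08 ± 1.30 CPM in DMSO, and was higher in TBT than in ROSI by 1.14 ± 0.23 (edgeR, adjusted p = 0.0023). Thra fell to 23.6 ± 8.92 CPM in TBT, against 42.7 ± 1.22 CPM in DMSO (edgeR, adjusted p = 0.0081), and Thrb rose to 40.8 ± 4.07 CPM in TBT, against 27.6 ± 2.42 CPM in DMSO (adjusted p = 0.011). Slc16a10, a transporter of aromatic amino acids and thyroid hormone, rose to 31.9 ± 1.49 CPM in ROSI, against 8.21 ± 4.64 CPM in DMSO (edgeR, adjusted p = 5.8e-05). Dio1, the deiodinase of liver and kidney, averaged 0 CPM in TBT, 0 CPM in ROSI and 0.0738 CPM in DMSO and was not tested.

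Kcnk3 encodes TASK1, a background potassium channel that holds the membrane potential and is counted among beige fat markers. Its level was 4.63, 4.43, 4.48 and 8.89 CPM in TBT 1 to 4, then 25.5, 19.7, 19.1 and 14.2 CPM in ROSI and 3.32, 1.17, 7.44 and 0.945 CPM in DMSO. All ROSI libraries were above all others, and TBT and DMSO overlapped through DMSO 3 alone, which at 7.44 CPM lay above TBT 1 to 3; TBT 4 was above every DMSO library. The means were 5.61 ± 2.19 CPM in TBT, 19.6 ± 4.63 CPM in ROSI and 3.22 ± 3.01 CPM in DMSO. Kcnk3 was higher in ROSI than in DMSO by a log2 fold change of 2.51 ± 0.42 (edgeR, adjusted p = 0.00029), or 3.49 without DMSO 3, and lower in TBT than in ROSI by -1.81 ± 0.40 (adjusted p = 0.0040). The difference between TBT and DMSO, 0.70 ± 0.46, did not pass with all libraries (adjusted p = 0.30). It rested on DMSO 3: without that library TBT was higher by 1.69 and passed (adjusted p = 0.018), and without TBT 4 as well it was 1.40 (adjusted p = 0.013). Of 13 other channels of this tandem-pore family 1 was tested, Kcnk2, which had 2.40 ± 1.58 CPM in TBT, 1.86 ± 0.622 CPM in ROSI and 4.09 ± 2.13 CPM in DMSO and passed in no comparison.

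Cidea encodes a lipid-droplet protein that is a classic marker of brown fat and helps droplets fuse. Its level was 0.891, 0.770, 1.49 and 1.52 CPM in TBT 1 to 4, then 8.25, 7.40, 6.84 and 6.80 CPM in ROSI and 3.32, 6.07, 4.00 and 3.47 CPM in DMSO. The 3 groups did not overlap at all: TBT was lowest, DMSO in between and ROSI highest. The means were 1.17 ± 0.393 CPM in TBT, 7.32 ± 0.677 CPM in ROSI and 4.21 ± 1.27 CPM in DMSO, and the raw counts ran from 4 to 7 reads in TBT, 33 to 53 in ROSI and 14 to 29 in DMSO. By edgeR, Cidea was lower in TBT than in DMSO by a log2 fold change of -1.84 ± 0.33 (adjusted p = 0.0019) and lower in TBT than in ROSI by -2.64 ± 0.31 (adjusted p = 1.7e-05). ROSI was higher than DMSO by 0.80 ± 0.26 (adjusted p = 0.031), and lost this call whenever DMSO 1, 3 or 4 or ROSI 1 or 2 was left out (largest adjusted p = 0.092). The libraries were read without strand, and how the reads were counted is not given. Over all libraries, 141 reads were assigned to the overlapping B430212C06Rik, beside 281 to Cidea, so some reads of one may be counted for the other. B430212C06Rik averaged 3.08 CPM in TBT, 1.82 CPM in ROSI and 2.00 CPM in DMSO.

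Cidec, the relative of Cidea that builds the large droplet of white fat cells, did not show this drop in TBT. It had 117, 135, 114 and 221 CPM in TBT 1 to 4, then 511, 560, 359 and 343 CPM in ROSI and 48.6, 86.6, 162 and 66.2 CPM in DMSO. ROSI stood above both other groups, and TBT and DMSO overlapped through DMSO 3. By edgeR the log2 fold change was 0.69 ± 0.30 for TBT against DMSO (adjusted p = 0.12), 2.28 ± 0.31 for ROSI against DMSO (adjusted p = 3.8e-05) and -1.59 ± 0.30 for TBT against ROSI (adjusted p = 0.0012). Without DMSO 3, TBT against DMSO was 1.13 and passed. The difference between the responses of Cidea and Cidec was not tested. Cideb, the liver member of the family, averaged 2.00 CPM in TBT, 2.14 CPM in ROSI and 1.94 CPM in DMSO and passed in no comparison.

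Cox7a1 and Cox8b encode subunits of cytochrome c oxidase, the last enzyme of the respiratory chain, in the forms used by heart, muscle and brown fat; Cox7a2 and Cox8a are the forms that most other tissues use. Cox8b had 5, 2, 3 and 7 reads in TBT 1 to 4, then 23, 25, 23 and 29 reads in ROSI and 1, 4, 5 and 1 reads in DMSO. In CPM this was 0.891, 0.385, 0.640 and 1.52 in TBT, 5.75, 3.94, 2.97 and 5.80 in ROSI, and 0.237, 0.933, 0.689 and 0.158 in DMSO. Every ROSI library was above every other library, and TBT and DMSO overlapped at a few reads each. The means were 0.858 ± 0.486 CPM in TBT, 4.61 ± 1.40 CPM in ROSI and 0.504 ± 0.370 CPM in DMSO. Cox8b was kept by the filter through its ROSI libraries and had 11 reads in all of DMSO, so the sizes and p-values that set ROSI against other groups describe a gene selected for its ROSI level. With that limit, it was higher in ROSI than in DMSO by a log2 fold change of 3.12 ± 0.48 (edgeR, adjusted p = 0.00013) and lower in TBT than in ROSI by -2.38 ± 0.44 (adjusted p = 0.0011), in all 12 fits that left out a library. TBT against DMSO gave 0.74 ± 0.61 (adjusted p = 0.42). The 11 reads of DMSO lie below the 95th percentile of the receptor genes in that group (20 reads), and 1.07% of those genes had at least its 17 reads in TBT.

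The ubiquitous form Cox8a was at a much higher level and did not pass in any comparison, with 42.9 ± 9.37 CPM in TBT, 61.7 ± 6.75 CPM in ROSI and 50.6 ± 14.1 CPM in DMSO. Cox8b therefore made up 1.99% ± 1.05 of the reads of the pair in TBT, 6.95% ± 1.94 in ROSI and 0.960% ± 0.638 in DMSO. The share needs no library scaling. It was higher in ROSI than in DMSO by 5.99 percentage points and lower in TBT than in ROSI by -4.96 points, each with an exact two-sided permutation p = 0.0286, the smallest possible with 4 against 4 libraries, and 0.129 after adjustment over 9 share comparisons. The TBT share exceeded the DMSO share by 1.03 points (exact permutation p = 0.171).

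Cox7a1 stayed below the filter on low counts, though it had reads in all 12 libraries. It was above the detection limit of 3 reads in 3 libraries of TBT, 4 of ROSI and 1 of DMSO. Its counts were 2, 4, 5 and 11 reads in TBT 1 to 4, then 7, 6, 12 and 7 reads in ROSI and 5, 2, 3 and 2 reads in DMSO. In reads every ROSI library exceeded every DMSO library, but in CPM ROSI and DMSO overlapped (0.945 CPM in ROSI 2 and 1.18 CPM in DMSO 1), and TBT overlapped both. The means were 1.14 ± 0.877 CPM in TBT, 1.41 ± 0.342 CPM in ROSI and 0.595 ± 0.398 CPM in DMSO. Without a filter, edgeR gave it an adjusted p of 0.35 for TBT against DMSO, 0.15 for ROSI against DMSO and 0.80 for TBT against ROSI. Its share of the reads of Cox7a1 and Cox7a2 was 3.03% ± 1.51 in TBT, 2.62% ± 0.616 in ROSI and 1.58% ± 0.921 in DMSO, with no difference that passed (exact two-sided permutation p = 0.171 for TBT against DMSO, 0.114 for ROSI against DMSO and 0.686 for TBT against ROSI). At least 12 reads, the Cox7a1 sum in DMSO, were found for 16.9% of the receptor genes in that group, against 0.604% at its TBT sum of 22 reads and 0.269% at its ROSI sum of 32 reads.

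Of the other 11 cytochrome c oxidase isoforms listed, 7 were tested. In TBT against DMSO 1 rose (Cox7a2l, a factor of respiratory supercomplexes) and 1 fell (Cox4i1); in ROSI against DMSO 2 rose (Cox7a2 and Cox6a1); and 4 were lower in TBT than in ROSI (Cox4i1, Cox7a2, Cox6a1 and Cox6b1). Cox6a1 was called in 7 of the 12 fits without 1 library against DMSO and in 8 against ROSI, and Cox6b1 in 7. Cox7a2 had 33.4 ± 8.85 CPM in TBT, 52.3 ± 0.653 CPM in ROSI and 36.1 ± 5.27 CPM in DMSO, with log2 fold changes of 0.54 ± 0.16 for ROSI against DMSO (edgeR, adjusted p = 0.024, lost without DMSO 4) and -0.65 ± 0.16 for TBT against ROSI (adjusted p = 0.0095). Cox4i1 had 111 ± 47.5 CPM in TBT, 236 ± 19.1 CPM in ROSI and 182 ± 33.4 CPM in DMSO; its call against ROSI (-1.10 ± 0.21, edgeR, adjusted p = 0.0015) held without each library, and that against DMSO (-0.72 ± 0.21, adjusted p = 0.032) ended without DMSO 1 or 2 or TBT 1, 2 or 3. The muscle and heart form Cox6a2 was not tested, at 0.0533 ± 0.107 CPM in TBT, 0.469 ± 0.246 CPM in ROSI and 0 CPM in all DMSO libraries.

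Chchd10 encodes a small protein of the mitochondrial intermembrane space that is linked to the cristae junctions. Its level was 2.67, 1.92, 4.05 and 6.07 CPM in TBT 1 to 4, then 78.5, 72.2, 34.2 and 33.0 CPM in ROSI and 1.18, 1.17, 21.1 and 0.788 CPM in DMSO. The ROSI libraries stood above all others, and 3 of the 4 DMSO libraries lay below all TBT libraries while DMSO 3 lay above them. The means were 3.68 ± 1.82 CPM in TBT, 54.5 ± 24.2 CPM in ROSI and 6.05 ± 10.0 CPM in DMSO, or 1.05 ± 0.224 CPM in DMSO without DMSO 3 (n = 3). Chchd10 was higher in ROSI than in DMSO by a log2 fold change of 3.00 ± 0.64 (edgeR, adjusted p = 0.0022), or 5.71 without DMSO 3, and lower in TBT than in ROSI by -3.90 ± 0.71 (adjusted p = 0.00091). TBT against DMSO was -0.89 ± 0.78 (adjusted p = 0.45) with all libraries, 1.81 without DMSO 3 (adjusted p = 0.052) and 1.48 without DMSO 3 and TBT 4 (adjusted p = 0.073), so that its direction depended on 1 library. The sum of 89 reads given to Gm867, which overlaps Chchd10, compares with 1442 for Chchd10 itself.

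Of 10 tested relatives and cristae proteins, 2 rose in TBT against DMSO and 4 in ROSI against DMSO, and 2 were higher and 1 lower in TBT than in ROSI. Without 1 library, Chchd3 (higher in ROSI than in DMSO) was called in 8 of 12 fits, and Chchd1, Chchd7 and Chchd5 (TBT against ROSI) in 10, 8 and 3. Chchd6, a subunit of the complex that shapes the cristae, had 7.67 ± 1.13 CPM in TBT, 8.70 ± 2.04 CPM in ROSI and 3.80 ± 0.722 CPM in DMSO. It rose by 0.98 ± 0.24 in TBT (edgeR, adjusted p = 0.014) and by 1.18 ± 0.24 in ROSI (adjusted p = 0.0014). Chchd2, the closest relative of Chchd10, had 41.9 ± 9.27 CPM in TBT, 43.7 ± 4.50 CPM in ROSI and 29.4 ± 2.28 CPM in DMSO. It was higher in ROSI by 0.56 ± 0.16 (edgeR, adjusted p = 0.014) and in TBT by 0.51 ± 0.16 (adjusted p = 0.039); the TBT call ended without DMSO 1, 2 or 4, without ROSI 3 and without TBT 1, 2 or 3.

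**Figure D4:**
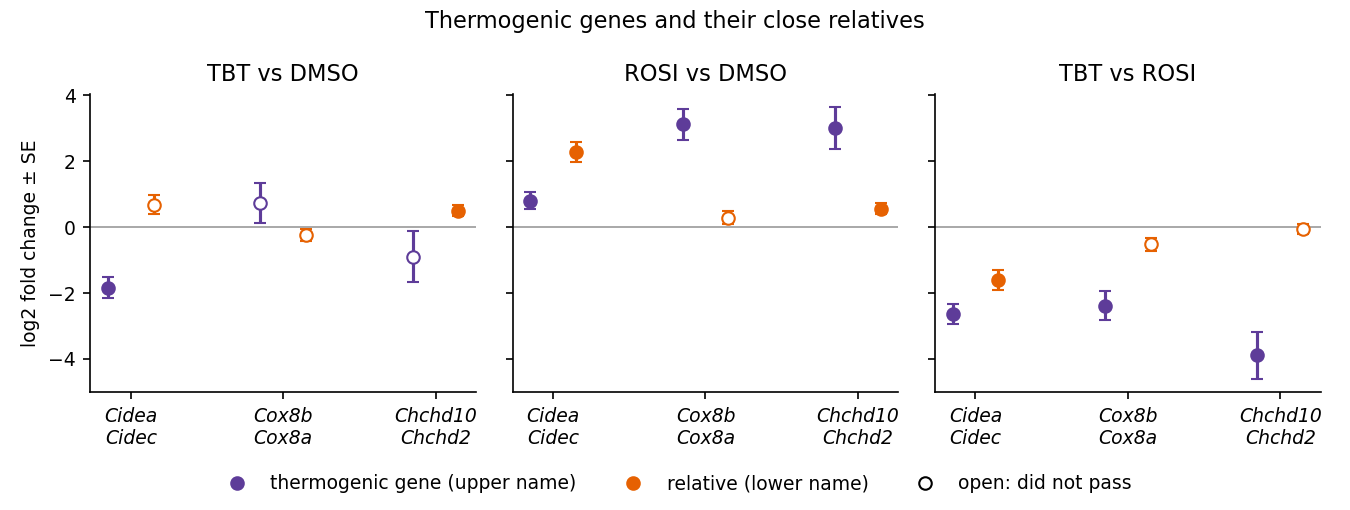
Log2 fold change with its SE (bars) of Cidea, Cox8b and Chchd10 (purple) beside their relatives Cidec, Cox8a and Chchd2 (orange) in the 3 comparisons, filled where the adjusted p of edgeR was under 0.05. In TBT against ROSI, Chchd10 is at -3.90 and Chchd2 at -0.06; the differences between relatives were not tested.

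Of 12 tested regulators of the thermogenic program, 2 rose in TBT against DMSO, 4 rose and 1 fell in ROSI against DMSO, and 1 was higher and 4 were lower in TBT than in ROSI; the median log2 fold changes were -0.10, 0.32 and -0.39. In ROSI against DMSO, Ebf2 was called in 8 and Tbx15 in 5 of the 12 fits without 1 library, and in TBT against ROSI Ppargc1a was called in 10. Ebf2, a factor that marks brown and beige fat precursors, rose to 8.11 ± 0.337 CPM in TBT, against 3.31 ± 0.958 CPM in DMSO (log2 fold change 1.32 ± 0.30, edgeR, adjusted p = 0.0085). Ppara, a receptor that drives fat burning, had 5.06 ± 1.76 CPM in TBT, 24.7 ± 2.36 CPM in ROSI and 7.33 ± 2.50 CPM in DMSO, higher in ROSI by 1.73 ± 0.24 (edgeR, adjusted p = 4.3e-05) and lower in TBT than in ROSI by -2.26 ± 0.25 (adjusted p = 8.3e-06). The coactivator gene Ppargc1b had 2.59 ± 0.549 CPM in TBT, 8.36 ± 1.94 CPM in ROSI and 3.03 ± 1.76 CPM in DMSO, higher in ROSI by 1.37 ± 0.34 (edgeR, adjusted p = 0.0064). Its relative Ppargc1a had 27.7 ± 5.34 CPM in TBT, 40.8 ± 7.72 CPM in ROSI and 32.3 ± 3.15 CPM in DMSO, with a log2 fold change in ROSI against DMSO of 0.34 ± 0.17 (edgeR, adjusted p = 0.16). Prdm16, the factor that commits cells to brown fat, had 3.41 ± 1.31 CPM in TBT, 6.37 ± 1.56 CPM in ROSI and 3.58 ± 1.18 CPM in DMSO and did not pass in ROSI against DMSO (edgeR, adjusted p = 0.061); its call in TBT against ROSI, -0.90 ± 0.32 (adjusted p = 0.046), ended without DMSO 1 or 3, without ROSI 1, 2 or 3 and without TBT 1, 2 or 3.

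Of 24 further brown and beige fat markers 10 were tested. In TBT against DMSO 2 rose and 2 fell, in ROSI against DMSO 5 rose and 1 fell, and 3 were lower in TBT than in ROSI. Of these, Mtus1 (higher in TBT) was called in 3 of the 12 fits without 1 library, and Kng2 (lower in TBT and in ROSI) in 7 of 12 for each group; the other calls held in all 12. Elovl3, an enzyme that lengthens fatty acids and is induced by cold in brown fat, had the same order of groups as Cidea: 0.713, 0.577, 0.853 and 0.867 CPM in TBT 1 to 4, then 32.5, 47.4, 33.9 and 35.0 CPM in ROSI and 4.26, 5.37, 11.3 and 4.73 CPM in DMSO. The 3 groups did not overlap, with TBT lowest. Elovl3 had 4, 3, 4 and 4 reads in TBT 1 to 4, at or just above the detection limit of 3 reads. The size of its differences that involve TBT is therefore imprecise. Its log2 fold change by edgeR was -3.11 ± 0.40 for TBT against DMSO (adjusted p = 0.00015), 2.49 ± 0.25 for ROSI against DMSO (adjusted p = 2.3e-06) and -5.60 ± 0.35 for TBT against ROSI (adjusted p = 3.7e-08). Pdk4, a kinase that spares glucose, took another course and was higher in both TBT (374 ± 48.5 CPM) and ROSI (397 ± 12.9 CPM) than in DMSO (134 ± 39.5 CPM; edgeR, adjusted p = 5.8e-05 and 5.5e-06). Nrg4, a growth factor secreted by brown fat, had 7.98 ± 2.34 CPM in TBT, 23.5 ± 2.97 CPM in ROSI and 11.0 ± 2.09 CPM in DMSO, higher in ROSI than in DMSO (1.09 ± 0.21, edgeR, adjusted p = 0.00089) and lower in TBT than in ROSI (-1.56 ± 0.22, adjusted p = 8.3e-05).

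Of 12 tested genes of the adrenergic and cyclic AMP input, 6 rose in TBT against DMSO, 4 rose in ROSI against DMSO, and 2 were higher and 2 lower in TBT than in ROSI. In TBT against DMSO, the call of Mapk14 held in 6 and that of Prkar1a in 8 of the 12 fits without 1 library; in TBT against ROSI, that of Mapk14 held in 4. Pde3b, the phosphodiesterase through which insulin lowers cyclic AMP, rose in TBT by 0.81 ± 0.15 (edgeR, adjusted p = 0.0027) and in ROSI by 0.95 ± 0.15 (adjusted p = 0.00017). Prkar2b, a regulatory subunit of protein kinase A in fat, had 193 ± 33.5 CPM in TBT, 372 ± 17.1 CPM in ROSI and 103 ± 47.6 CPM in DMSO, and passed as higher in TBT (0.89 ± 0.22, edgeR, adjusted p = 0.012) and in ROSI (1.84 ± 0.22, adjusted p = 1.2e-05). The beta-3 receptor gene Adrb3, the receptor of mature fat cells, was below the filter, at 1.43, 2.31, 1.07 and 0.650 CPM in TBT 1 to 4, against a mean of 0.179 CPM in ROSI and 0.132 CPM in DMSO. All TBT libraries were above all others for Adrb3, and it was chosen for mention after its values were seen.

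Of 6 tested genes of creatine, calcium and lipid cycling, which make heat without UCP1, 1 rose in TBT against DMSO, 1 rose in ROSI against DMSO, and 1 was higher and 2 lower in TBT than in ROSI. Without 1 library, Slc6a8 (higher in TBT than in DMSO) was called in 6 of 12 fits, and Alpl and Atp2a2 (TBT against ROSI) in 10 each. The glycerol kinase gene Gyk had 21.4 ± 2.87 CPM in TBT, 64.3 ± 12.3 CPM in ROSI and 16.1 ± 6.25 CPM in DMSO, higher in ROSI than in DMSO by 1.97 ± 0.22 (edgeR, adjusted p = 6.0e-06). Of 6 tested genes selective for white fat, 2 rose in TBT against DMSO, 2 rose and 1 fell in ROSI against DMSO, and 2 were higher and 1 lower in TBT than in ROSI. Agt, the angiotensin precursor, rose to 239 ± 115 CPM in TBT and to 188 ± 50.1 CPM in ROSI, against 51.3 ± 26.3 CPM in DMSO (edgeR, adjusted p = 0.00053 and 0.00048).

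Markers of fat cells moved with the treatments as well. The sum of 10 adipocyte markers was 3949, 3794, 3537 and 2849 CPM in TBT 1 to 4, then 5558, 6547, 5992 and 7190 CPM in ROSI and 1228, 1136, 2444 and 1353 CPM in DMSO. The groups did not overlap, and DMSO 3, the library high for Chchd10 and Kcnk3, had the largest sum of the DMSO group. By edgeR 4 markers rose and 1 (Adipoq) fell in TBT against DMSO, 8 rose in ROSI against DMSO, and 7 were lower in TBT than in ROSI, and none of the 10 was at 0. Their part in the differences of the thermogenic genes was not tested. The sum was carried by Lpl, Cd36 and Fabp4, and single markers differ from it: Adipoq had 2.29 ± 0.854 CPM in TBT, against 10.6 ± 3.25 CPM in DMSO, and Cebpa 21.6 ± 1.19 CPM in TBT, against 22.0 ± 5.80 CPM in DMSO. Calls of Cd36 and Fabp4 in TBT against ROSI held in 5 and 11 of the 12 fits without 1 library. The TBT libraries had a larger sum than the DMSO libraries and less Cidea. All 4 TBT libraries also had a larger marker sum than DMSO 3 and less Chchd10. Single markers did not all follow the sum. Lpl, Cd36, Fabp4, Plin1 and Pparg were higher in every TBT library than in DMSO 3, and Cebpa and Adipoq were lower in every one. For Lipe, Pnpla2 and Slc2a4 the TBT libraries lay on both sides of DMSO 3. Whether fat-cell content has a part in the levels of Cidea and Chchd10 was not tested.

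**Figure D5:**
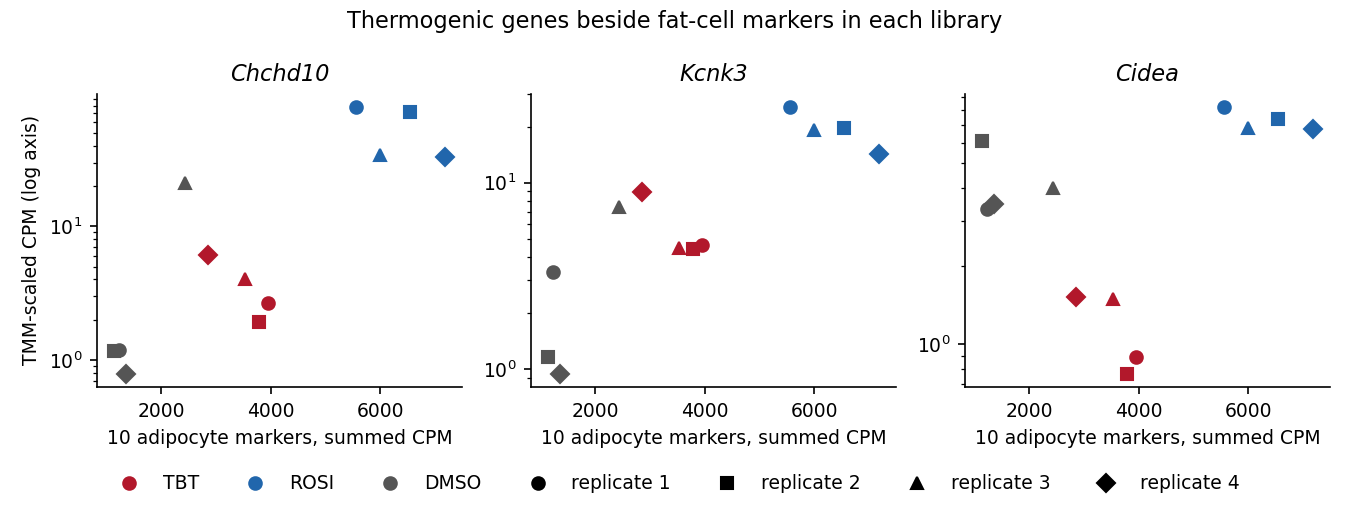
TMM-scaled CPM of Chchd10, Kcnk3 and Cidea (log axes) against the summed CPM of 10 adipocyte markers (linear axis) in the 12 libraries, coloured by group and with marker shape for the replicate number. DMSO 3 has the largest marker sum of its group (2444 CPM) and the largest Chchd10 and Kcnk3 levels, and the TBT libraries lie lowest for Cidea at 2849 to 3949 CPM of markers.

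Cox7a1, Cox8b, Ucp3 and Chchd10 are also used by muscle, so muscle markers were examined. None of 10 skeletal muscle markers passed the filter, Ckm, Myod1 and Myog were at 0 in all libraries, and the sum was 0.853 to 2.82 CPM in TBT, 1.00 to 1.80 CPM in ROSI and 1.58 to 6.87 CPM in DMSO. None of 6 cardiac markers passed either, Myh6 and Myl7 were at 0 in all libraries, and the sum was 0.213 to 1.54 CPM in TBT, 0 to 0.400 CPM in ROSI and 0.551 to 1.40 CPM in DMSO. Ucp2 is also used by macrophages, whose 8 markers summed to 19.6 to 35.3 CPM in TBT (highest in TBT 4, the library highest in Ucp2), 19.2 to 30.2 CPM in ROSI and 25.1 to 30.1 CPM in DMSO. Most of the sum in TBT 4 was Cd14 (20.6 CPM) and Cd68 (11.5 CPM). Emr1, Itgam, Ptprc and Mrc1 had 1, 0, 0 and 4 reads in that library. Of 3 tested macrophage markers, Cd68 was higher in ROSI than in DMSO (0.73 ± 0.23, edgeR, adjusted p = 0.031, lost without DMSO 1 or 2 or ROSI 1 or 3) and none passed in TBT. Endothelial markers summed to 5.00 to 7.89, 2.50 to 4.41 and 7.82 to 9.80 CPM in TBT, ROSI and DMSO, erythroid markers to 8.02 to 16.2, 11.0 to 12.5 and 12.4 to 24.2 CPM, and neuronal markers to 0.867 to 5.33, 0.400 to 1.42 and 2.80 to 5.92 CPM. Most of the erythroid sum was Alas2, with means of 11.4 CPM in TBT, 11.6 CPM in ROSI and 19.2 CPM in DMSO. The globin genes Hba-a1 and Hbb-b1 had at most 2 reads in a library. The part of all these markers in the levels of the thermogenic genes was not tested.

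The TBT libraries differed from each other in their tilt with GC content, as given above. The longest coding transcript of Kcnk3 has a GC content of 59.1%, above 94.4% of tested genes, that of Chchd10 58.2%, and those of Cox8b, Cidea and Ucp2 55.0% to 55.8%, whereas Dio2 has 43.4%, above 16.8% of tested genes. With offsets corrected for GC content in each library, Cidea was lower in TBT than in DMSO by -1.65 (edgeR, adjusted p = 0.0022), Ucp2 was higher by 0.82 (adjusted p = 0.0080) and Dio2 stood at -0.69 (adjusted p = 0.061). Kcnk3 was lower in TBT than in ROSI by -1.53 and Chchd10 by -3.63 in the same fit.

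The genes whose levels ran closest to each member over the 12 libraries were found by Pearson's r of log2 CPM among tested genes with a mean of at least 5 CPM. These r values describe 12 libraries of 3 treatments, so that genes with the same treatment pattern score high. Chchd10 ran closest to Pnpla2 (0.974), Gpd1 (0.972) and Acer2 (0.968), and Kcnk3 to G0s2 (0.967), Agpat2 (0.965) and Slc16a10 (0.959). Dio2 ran closest to Lpar1 (0.982), Chd3 (0.965) and Mbnl3 (0.964), and Cidea to Tmem45b (0.961), Tagln2 (0.952) and Slc39a14 (0.951). For Cox8b they were Prkab2 (0.962), Idh3g (0.958) and Pex19 (0.955), and for Ucp2 Plxnd1 (0.934), Slc25a10 (0.932) and Tob2 (0.923). Among the members themselves the highest r was that of Chchd10 and Kcnk3 (0.934) and the lowest that of Dio2 and Cox8b (-0.899).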

How the data were processed

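RNA for 12 libraries (TBT, ROSI and DMSO, 4 libraries each) was depleted of ribosomal RNA and read as single reads of 50 nt without strand on a SOLiD 5500XL, per the labels' protocols. The authors deposited raw read counts per gene symbol and a second table of regularized log2 values. The submitters' processing notes name the build mm9 and the tools FastQC, SAMtools and DESeq2 without versions. How reads were aligned and counted, and with which annotation, is not given in the sources used here. Library columns were matched to groups by the titles, and 0 columns had no sample. No pair of libraries of a group was a copy of one another (lowest chi-square per degree of freedom 4.66).

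The deposited counts were tested with edgeR 4.0.16 in R 4.3.3: filterByExpr with the 3 groups (12323 genes kept), TMM scaling, and 1 quasi-likelihood model over all 12 libraries without covariates. P-values were adjusted by the Benjamini-Hochberg method over all tested genes (threshold 0.05), and an SE is the ratio of the log2 fold change to the square root of its F statistic. Read shares within isoform pairs, and the counts of Ucp1 and Ucp3, were compared by exact two-sided permutation tests over libraries (SciPy 1.17.1). GC content was known for 99.1% of tested genes. Alternatives were other scalings, filters, DESeq2 1.42.0, limma 3.58.1 on the deposited log2 values, models with a replicate block or with just the libraries under comparison, and leaving out each library; GC-corrected offsets and leaving out TBT 4 and DMSO 3 together were added after seeing the data.

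The members and the 11 gene lists around them were chosen with earlier results of these data known. Named genes are the 9 members, their measured relatives, up to 4 genes with the smallest p in each direction from each other list, and the 3 genes closest to each member by r. Some genes that this rule picks are left out of the text but are part of all counts.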

Additional observations from a re-analysis of the deposited data

Results flagged for a closer look

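In groups of 4 libraries, Dixon's test at the 95% level asks whether the highest or the lowest library stands apart from the other 3. It was applied to 36 sets of values, and 5 had such a library. By chance about 1 in 20 sets would if all were independent and normal. That does not hold here, since some sets are a few reads or all 0, and the shares reuse reads of the members. Both flags in DMSO 2 rest on the same 5 reads of Ucp1.

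Chchd10 was at 21.1 CPM in DMSO 3, against 0.788 to 1.18 CPM in the other DMSO libraries. The same library had the largest sum of fat-cell markers in its group. Kcnk3 was at 8.89 CPM in TBT 4, against 4.43 to 4.63 CPM in the other TBT libraries. Without TBT 4 the TBT mean of Kcnk3 was 4.51 ± 0.108 CPM (n = 3). Ucp1 was at 1.17 CPM in DMSO 2, which is 5 reads, against 0 to 0.158 CPM in the other DMSO libraries. The share of Ucp2 in the reads of the 3 uncoupling proteins was 98.7% in the same library, against 99.8% to 100% in the other DMSO libraries. The share of Cox7a1 in the reads of Cox7a1 and Cox7a2 was 2.96% in DMSO 1, against 1.09% to 1.16% in the other DMSO libraries, a matter of 5 reads against 2 or 3.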

How the results depend on the processing

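The calls of Ucp2, Dio2, Cox8b, Chchd10 and Kcnk3 in ROSI against DMSO, and the 5 calls in TBT against ROSI, kept direction and threshold in all 12 fits without 1 library. Cox8b was kept by the filter through its ROSI libraries, so its calls here and by limma describe a gene selected for its ROSI level. Members called in TBT against DMSO numbered 2, and 1 with upper-quartile factors, the replicate block, the fit of 2 groups only or limma on the deposited log2 values (each loses Ucp2), and 0 with a mean of at least 5 CPM, which loses Ucp2 and leaves Cidea untested. The same filter gave 3 members in TBT against ROSI, since it tests fewer. Chchd10 in TBT against DMSO turned to 1.48 without TBT 4 and DMSO 3. All genes called in TBT against DMSO numbered 1160 with the replicate block, 1130 with the block and GC correction, and 3766 without TBT 4 and DMSO 3; in TBT against ROSI the last gave 4695. Libraries with the same replicate number were not alike across groups (r of -0.43 to 0.14, 1 of 12 libraries closest to its own number). That check cannot show a batch that several numbers share. Chi-square per degree of freedom was 10.5 for ROSI 1 and 2 and 5.84 for ROSI 3 and 4. Other ROSI pairs had 19.9 to 31.6. In DMSO these pairs had 4.97 and 10.4, and the others 11.4 to 23.9. In TBT the lowest value was that of TBT 1 and 3 (4.66). The cause was not tested. Under the replicate block Cidea in ROSI against DMSO was 0.81 (edgeR, adjusted p = 0.064). On the deposited log2 values, which the authors regularized, Cox8b in ROSI against DMSO was 0.77 and Cidea in TBT against DMSO -0.52, both still called by limma. Other causes were not tested.

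Leaving out 1 library gave 1019 to 4125 genes and 1 to 3 members in TBT against DMSO, 2219 to 3537 genes and 5 to 6 members in ROSI against DMSO, and 1732 to 4826 genes and 5 to 6 members in TBT against ROSI. Chchd10 in TBT against DMSO ranged from -1.28 to 1.81. Differences in read share, in percentage points and in the order TBT against DMSO, ROSI against DMSO and TBT against ROSI, ranged from 0.841 to 2.04, 0.852 to 1.504 and -0.203 to 0.995 for Cox7a1, from 0.688 to 1.37, 5.23 to 6.79 and -5.76 to -4.20 for Cox8b, and from -0.104 to 0.326, -0.284 to 0.147 and 0.111 to 0.285 for Ucp2. The reversals were Cox7a1 without TBT 4 and Ucp2 without DMSO 2, ROSI 1 or ROSI 3.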
